A study of Mus musculus with 18 samples.

Results

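Oligodendrocyte lineage genes were followed in cultures of mouse cortical neurons: 30 genes that mark the lineage, listed by name from its precursor to its myelinating stage. Of these 30, 29 were found with counts among the 43629 gene IDs of the count table. Lhfpl3 was not found there, so its expression was not analysed, and only its promoter was searched. Gene transcripts were measured by bulk RNA sequencing of poly(A)-enriched RNA in 18 libraries. All cultures received a lentiviral construct on day 7 in vitro and were kept for 10 more days before harvest. The Psmb8 group (6 libraries) overexpressed Psmb8, the immunoproteasome's β5i subunit, the Psmb5 group (6 libraries) overexpressed Psmb5, its constitutive counterpart, and the mSc group (6 libraries) expressed the red fluorescent protein mScarlet as control. One protocol field mentions a construct for Ifng in every sample, which differs from the treatment tags and the design text. The labels do not state the promoter of the constructs, the animals behind a library or the age of the donors of the cortex. They number the libraries 1 to 6 within each group without saying what a number marks. The p-values therefore measure the spread between these libraries, part of which may be technical.

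Oligodendrocytes are the cells that wrap axons of the central nervous system in myelin. They arise from precursor cells that divide and carry the receptor Pdgfra and the proteoglycan Cspg4 (NG2). As they differentiate, these cells pass a short premyelinating stage marked by Gpr17, Bcas1 and Enpp6, and then make large amounts of myelin proteins and galactolipids. The transcription factors Olig1, Olig2, Sox10 and Nkx2-2 act through much of this course, and Myrf switches on myelin genes. Cultures of cortical neurons commonly hold some cells of this lineage beside astrocytes.

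Library totals ranged from 15337511 to 21074229 counts. The labels held for the constructs: Psmb8 stood at 546 to 1056 CPM (read counts scaled to a common library size) in the Psmb8 libraries and at 0.84 to 19.4 CPM in the mSc libraries. Psmb5 stood at 238 to 561 CPM in the Psmb5 libraries and at 41.0 to 45.1 CPM in the mSc libraries. Neuronal markers were abundant, with Map2, Syt1 and Slc17a7 at means of 1172, 913 and 736 CPM. Astrocyte markers were present at a summed 1862 to 6560 CPM (17 genes). Of other cell types some genes were detected, such as Dcn (fibroblasts) at a mean of 13.7 CPM and Cd68 (microglia and other phagocytes) at 26.1 CPM, and some defining ones were at or near 0: Cldn5 (endothelium) and Pmp2 (Schwann cells) had no count in any library, Tmem119 (microglia) and Kcnj8 (pericytes) had at most 1 count in a library, and Acta2 (mural cells) at most 2. In bulk RNA, fewer cells of a type and less RNA per cell cannot be told apart.

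The members differed widely in level, also within a stage. On a per-length scale (CPM divided by kilobases of exon), Olig1 had the highest median level over the 18 libraries, 83.3, followed by Olig2 at 47.3, Pdgfra at 12.5 and Sox10 at 10.4. Tspan2, a tetraspanin of early oligodendrocytes that other cells also make, came next at 7.58. Mbp, whose locus encodes myelin basic protein and also golli proteins of neurons, stood at 6.73 and Cnp, a myelin-associated phosphodiesterase, at 5.24. Enpp2 (autotaxin), C1ql1 and Cspg4 lay close together at 4.89, 4.89 and 4.58, within their spread between libraries. Mog, a protein of the outer myelin surface, reached 3.90 and Vcan, the matrix proteoglycan versican, 1.36. Gal3st1, Nkx2-2, Cldn11, Ugt8a, Gpr17 and Myrf had medians of 0.27 to 1.02. At the low end, 11 members had medians from 0 (Opalin and Aspa) to 0.10 (Fa2h). Of the 29 members, 19 had enough counts to be tested and 10 did not (Neu4, Enpp6, Mag, Mobp, Opalin, Ermn, Mal, Gjc3, Fa2h and Aspa).

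**Figure D1:**
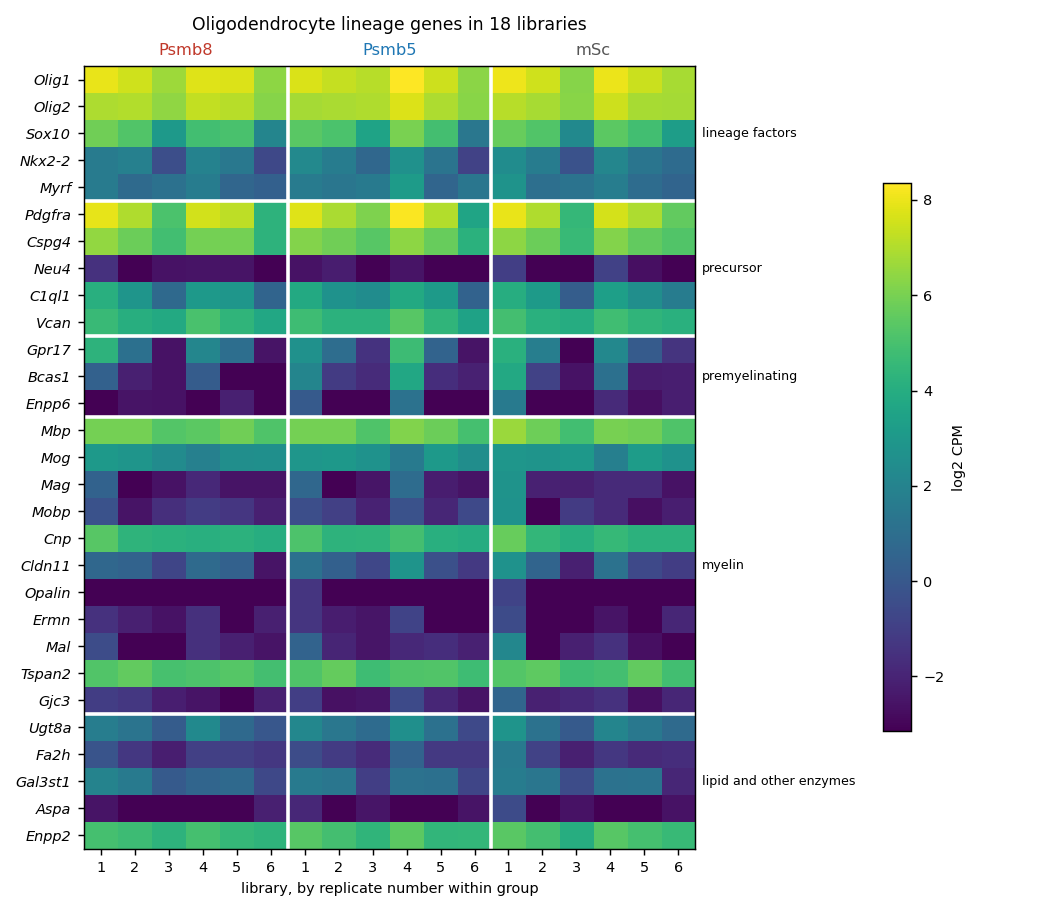
Heatmap of log2 CPM of 29 oligodendrocyte lineage genes (rows, by role) in 18 libraries (columns, by group and replicate number). Olig1, Olig2 and Pdgfra are bright in most libraries and darker in numbers 3 and 6, except Olig2 in Psmb5 replicate 3. Scarce myelin genes such as Mag and Mobp are brightest in mSc replicate 1.

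The lineage transcription factors were compared first. Olig1 had a lowest, median and highest level of 83.3, 198 and 254 CPM in Psmb8 libraries, 82.5, 169 and 326 CPM in Psmb5 libraries and 77.2, 179 and 266 CPM in mSc libraries. Olig2, its neighbour on chromosome 16 and the factor that specifies the lineage, had 77.7, 125 and 158 CPM in Psmb8, 79.4, 120 and 215 CPM in Psmb5 and 79.0, 115 and 175 CPM in mSc libraries. The groups overlapped almost entirely for both genes, and within each group the lowest libraries were those numbered 3 and 6, except that Olig2 in Psmb5 replicate 3 stood at 127 CPM, above its group's median. Sox10, which drives expression of many myelin genes, showed this most plainly. It stood at 8.11, 11.5 and 4.79 CPM in replicate 3 of Psmb8, Psmb5 and mSc and at 4.06, 2.55 and 9.30 CPM in replicate 6. In the other 12 libraries Sox10 lay between 29.1 and 65.7 CPM, with no overlap. Nkx2-2, a factor of differentiating precursors, ranged from 0.43 to 6.18 CPM. Myrf ranged from 1.18 to 8.96 CPM, and its highest libraries were Psmb5 replicate 4 at 8.96 CPM and mSc replicate 1 at 6.72 CPM.

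Most precursor genes were also lowest in numbers 3 and 6. Pdgfra, the receptor for the growth factor that keeps precursors dividing, had a lowest, median and highest level of 19.6, 136 and 244 CPM in Psmb8 libraries, 11.7, 124 and 314 CPM in Psmb5 libraries and 22.5, 124 and 248 CPM in mSc libraries. By number, Pdgfra had 244, 218 and 248 CPM in replicate 1 of Psmb8, Psmb5 and mSc, against 34.4, 70.0 and 22.5 CPM in replicate 3 and 19.6, 11.7 and 48.3 CPM in replicate 6. Replicates 2 and 5 lay between these, at 120 to 148 CPM, and replicate 4 at 186, 314 and 194 CPM. Numbers 1 and 4 were thus high, and numbers 3 and 6 low, in each of the 3 groups. Cspg4 ranged from 18 to 89.8 CPM, C1ql1, a secreted C1q-related protein, from 1.06 to 17.3 CPM, and Vcan from 11.1 to 40.5 CPM. Each of these 3 genes had its lowest level in replicate 3 or 6 in every group. Neu4, a sialidase, had at most 7 counts in a library.

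**Figure D2:**
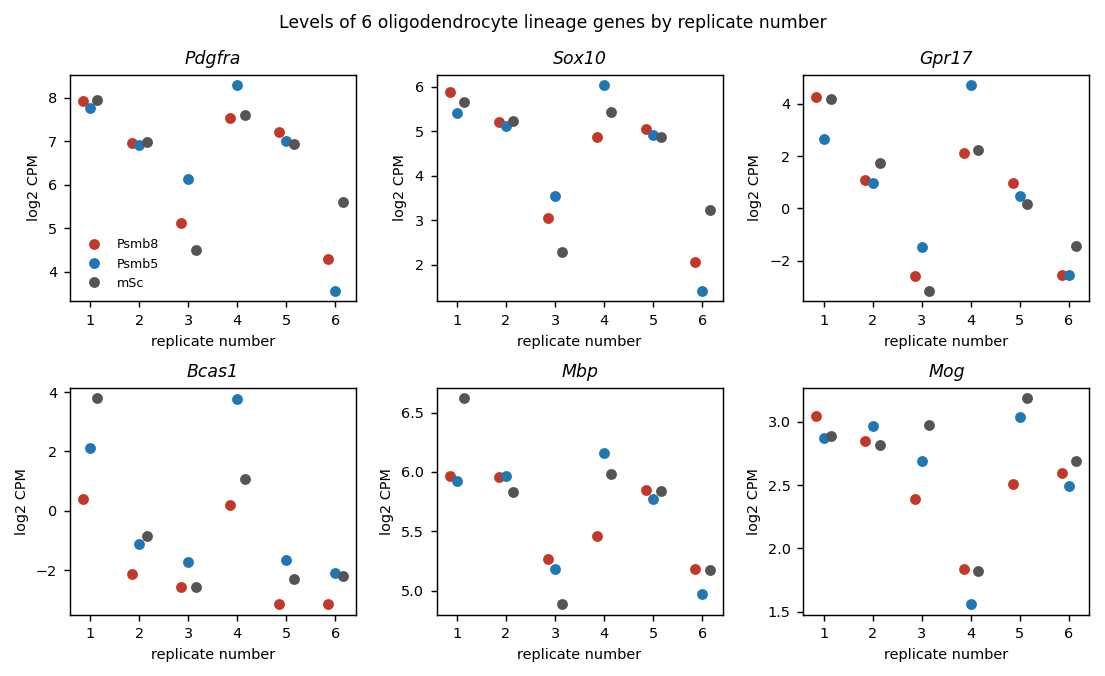
Levels of 6 genes as log2 CPM (vertical axis) by replicate number (horizontal axis), 1 point per library, coloured by group. In each of the 3 groups, Pdgfra, Sox10 and Gpr17 are lowest in numbers 3 and 6, and Mog is lowest in number 4. The groups differ within some numbers: in number 4, Gpr17 and Bcas1 are higher in Psmb5 than in Psmb8 and mSc.

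Promoters are shown for Pdgfra and Cspg4, precursor genes that were high in numbers 1 and 4 and low in 3 and 6, for Olig2, a lineage factor that was high in number 4, and for Mag, a myelin gene that was near 0 in most libraries. Each is 300 bases around the first listed start, 5′ to 3′ on the gene's strand, from RefSeq on GRCm38.p6; 21 of the 30 members had an entry. Capitals mark matches to any of the motifs searched on both strands, which were counted independently of each other: ACAAAG and ACAATG (SOX factors), CAGCTG and CATATG (E-boxes), TTTC followed by any 2 bases and TTTC (interferon-stimulated element) and TTCNNNGAA (STAT factors). Coordinates are chr16:91225300-91225599 for Olig2 (plus strand), chr5:75152001-75152300 for Pdgfra (plus), chr9:56864854-56865153 for Cspg4 (plus) and chr7:30914814-30915113 for Mag (minus).
Olig2: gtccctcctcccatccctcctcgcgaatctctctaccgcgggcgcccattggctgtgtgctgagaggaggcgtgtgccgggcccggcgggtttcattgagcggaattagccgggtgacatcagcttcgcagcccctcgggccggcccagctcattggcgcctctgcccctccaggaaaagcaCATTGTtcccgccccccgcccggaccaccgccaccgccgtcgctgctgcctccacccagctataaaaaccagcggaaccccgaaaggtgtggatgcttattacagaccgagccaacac
Pdgfra: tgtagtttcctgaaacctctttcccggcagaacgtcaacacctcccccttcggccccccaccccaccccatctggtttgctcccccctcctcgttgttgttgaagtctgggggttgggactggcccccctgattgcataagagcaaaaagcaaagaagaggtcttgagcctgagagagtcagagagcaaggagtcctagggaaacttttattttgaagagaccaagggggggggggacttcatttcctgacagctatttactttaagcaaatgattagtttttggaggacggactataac
Cspg4: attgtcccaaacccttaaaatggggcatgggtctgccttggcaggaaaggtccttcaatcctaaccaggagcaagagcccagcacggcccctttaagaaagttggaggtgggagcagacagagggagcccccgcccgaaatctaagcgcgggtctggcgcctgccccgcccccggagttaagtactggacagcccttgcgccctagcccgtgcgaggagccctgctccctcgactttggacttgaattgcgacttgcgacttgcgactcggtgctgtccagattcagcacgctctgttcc
Mag: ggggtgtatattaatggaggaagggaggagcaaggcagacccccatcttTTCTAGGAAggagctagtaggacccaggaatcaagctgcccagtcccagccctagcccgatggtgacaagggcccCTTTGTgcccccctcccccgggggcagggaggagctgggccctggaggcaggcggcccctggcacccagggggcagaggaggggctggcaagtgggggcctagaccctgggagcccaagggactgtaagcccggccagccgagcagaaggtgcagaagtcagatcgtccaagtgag
The Olig2 promoter held 1 match to ACAATG, on the reverse strand, and the Mag promoter held 1 match each to ACAAAG and TTCNNNGAA. These letters were not in the Pdgfra and Cspg4 windows. Over all 21 member promoters, ACAAAG was in 4 (Mag, Mobp, Cnp and Opalin) and in 18.7% of 27025 promoters, and ACAATG in 4 (Ermn, Enpp6, Gal3st1 and Olig2) and in 12.8%. CAGCTG was in 3 (Lhfpl3, Aspa and Opalin) and in 16.1% of all promoters, and CATATG in 1 (Tspan2) and in 3.91%. The interferon-stimulated element was in 1 (Gjc3) and in 3.49%, and TTCNNNGAA in 2 (Neu4 and Mag) and in 8.47%. A match is a description of the letters and not of a bound site.

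The premyelinating genes had most of their counts in numbers 1 and 4. Gpr17, a receptor that is made briefly between the precursor and the myelinating stage, had a lowest, median and highest level of 0.054, 1.93 and 19.1 CPM in Psmb8 libraries, 0.061, 1.57 and 26.3 CPM in Psmb5 libraries and 0, 2.12 and 17.8 CPM in mSc libraries. It had 1, 4 and 0 counts in replicate 3 of Psmb8, Psmb5 and mSc, and 1, 1 and 5 counts in replicate 6. In replicate 1 it had 315, 114 and 276 counts, and in replicate 4 it had 73, 464 and 78 counts. Bcas1, a protein of newly formed myelinating cells, had 20, 77 and 213 counts in replicate 1 of Psmb8, Psmb5 and mSc, 18, 237 and 34 counts in replicate 4 and at most 7 counts in each of the other 12 libraries. The 3 libraries with the most Bcas1 were thus Psmb5 replicate 4, mSc replicate 1 and Psmb5 replicate 1. Enpp6, a choline phosphodiesterase of newly forming oligodendrocytes, had 43 counts in mSc replicate 1, 38 in Psmb5 replicate 4, 18 in Psmb5 replicate 1 and at most 3 in any other library. The libraries high in Enpp6 were those highest in Bcas1.

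Among the myelin genes, those that could be tested differed from the scarce ones. Mbp had a lowest, median and highest level of 36.1, 50.7 and 62.4 CPM in Psmb8 libraries, 31.2, 57.5 and 71.3 CPM in Psmb5 libraries and 29.4, 57.0 and 98.4 CPM in mSc libraries. Cnp had 41.2, 34.9 and 50.5 CPM in replicate 1 of Psmb8, Psmb5 and mSc and 15.6 to 30.4 CPM in the other 15 libraries, so that replicate 1 stood above the rest in each group. Tspan2 varied least of these, from 27.0 to 50.2 CPM. Cldn11, the tight junction protein of myelin, ranged from 0.059 to 6.91 CPM and was above 2.5 CPM only in Psmb5 replicate 4 and mSc replicate 1. Mog was lowest in replicate 4 of each group: it had 3.46, 2.83 and 3.43 CPM in replicate 4 of Psmb8, Psmb5 and mSc and 5.14 to 9.0 CPM in the other 15 libraries. This is a number in which Pdgfra, Olig1 and Olig2 were high.

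The remaining myelin genes each had their highest count in mSc replicate 1. Mag, an adhesion protein of the inner myelin layer, had 103 counts in mSc replicate 1, 31 in Psmb5 replicate 4, 28 in Psmb5 replicate 1, 21 in Psmb8 replicate 1 and at most 4 in the other 14 libraries. Mobp, a small basic myelin protein, had 100 counts in mSc replicate 1 and at most 13 elsewhere, and Mal, a membrane raft protein, had 68 counts there and at most 24 elsewhere. Opalin, a marker of mature oligodendrocytes, had 7 counts in mSc replicate 1, 5 in Psmb5 replicate 1 and 0 in the other 16 libraries, where a count of 0 allows up to 3 counts or 0.136 to 0.189 CPM, by counting error alone. Ermn, a cytoskeletal protein of late stages, and Gjc3, a connexin, had at most 9 and 22 counts, both in mSc replicate 1. Summed over the 10 genes below the count filter, mSc replicate 1 had 410 counts. Psmb5 replicate 4 had 127, Psmb5 replicate 1 had 114, Psmb8 replicate 1 had 71 and the other 14 libraries had 10 to 30.

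**Figure D3:**
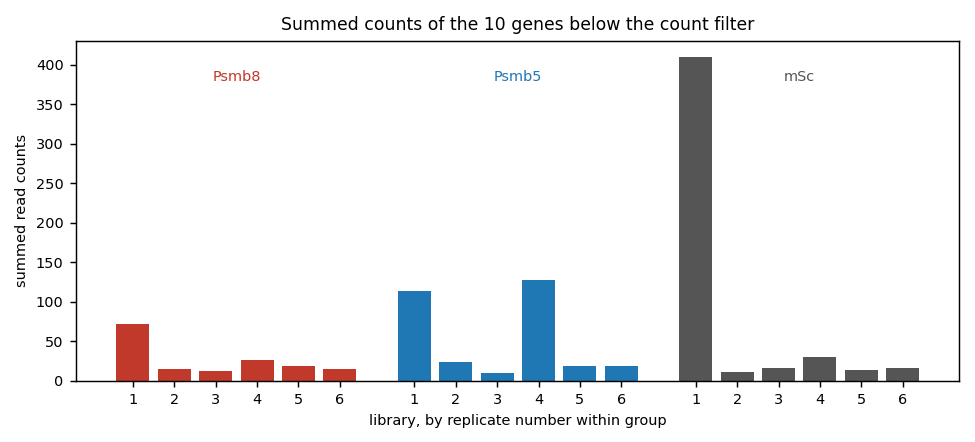
Summed read counts (vertical axis, from 0) of the 10 oligodendrocyte lineage genes below the count filter, 1 bar per library, by group and replicate number. mSc replicate 1 stands at 410 counts, Psmb5 replicates 4 and 1 and Psmb8 replicate 1 at 71 to 127, and the others at 10 to 30.

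Enzymes of myelin lipids were mostly at low levels. Ugt8a, which makes galactosylceramide, ranged from 0.55 to 6.85 CPM and was lowest in replicate 3 or 6 of every group. Gal3st1, which turns that lipid into sulfatide, ranged from 0.16 to 3.82 CPM. Fa2h, which hydroxylates the fatty acids of these lipids, had 43 counts in mSc replicate 1 and 2 to 23 in the others. Aspa, which releases acetate from N-acetylaspartate, had 9 counts in mSc replicate 1, at most 3 elsewhere and 0 in 10 libraries. Enpp2, a lysophospholipase D that is released by oligodendrocytes and other cells, had 19.5, 24.5 and 30.8 CPM in Psmb8 libraries, 20.4, 25.8 and 43.8 CPM in Psmb5 libraries and 16.0, 30.7 and 42.8 CPM in mSc libraries, as lowest, median and highest level.

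The replicate number was then tested as a factor next to the group. All 19 tested members differed between the 6 numbers (quasi-likelihood test of edgeR, with adjusted p from 3.81e-08 for Sox10 to 0.00049 for Myrf). Of all 15671 genes tested, 64.3% did. To describe the direction, each number (3 libraries, 1 per group) was set against the mean of the other 5 (15 libraries) in the same fit. These 6 contrasts share libraries, so they are not independent of each other.

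In number 1, 17 of the 19 members rose and none fell, where 19.6% of all tested genes rose and 14% fell. Tspan2 and Olig2 were the members that did not pass the threshold. C1ql1 stood at 15.9 ± 1.56 CPM (SD, n = 3) in number 1 and at 5.99 ± 3.80 CPM (SD, n = 15) in the other numbers (log2 fold change 1.70, SE 0.21, edgeR adjusted p = 1.71e-06). Cnp stood at 42.2 ± 7.89 CPM in number 1 and at 19.5 ± 3.68 CPM in the others (log2 fold change 1.12, SE 0.10, adjusted p = 2.37e-08). The median log2 fold change of the 19 was 1.09, against 0.00 over all tested genes. The rises of Cldn11 and Myrf no longer passed without mSc replicate 1, with log2 fold changes of 1.0 (adjusted p = 0.083) and 0.31 (adjusted p = 0.432).

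In number 4 most members rose as well. Of the 19 members, 14 rose and 1, Mog, fell, where 17.7% of all tested genes rose and 15.6% fell. Olig2 stood at 183 ± 29.2 CPM in number 4 and at 111 ± 20.6 CPM in the other numbers (log2 fold change 0.73, SE 0.10, adjusted p = 2.65e-05), and Vcan at 34.1 ± 6.05 CPM against 19.1 ± 5.09 CPM (0.87, SE 0.09, adjusted p = 8.17e-07). Mog stood at 3.24 ± 0.35 CPM in number 4 and at 6.94 ± 1.11 CPM in the others (log2 fold change -1.09, SE 0.14, adjusted p = 7.49e-06). Of the 5 tested myelin genes, Cldn11 was the 1 that rose, and Mbp, Cnp and Tspan2 did not pass. The median of the 19 was 0.87. The rises of Cldn11 and Myrf did not pass without Psmb5 replicate 4, with log2 fold changes of 1.16 (adjusted p = 0.0592) and 0.56 (adjusted p = 0.134).

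Numbers 3 and 6 ran the other way. In number 6, 16 of the 19 members fell and none rose, where 12.5% of all tested genes fell and 14.1% rose. Bcas1, Mog and Myrf were the 3 that did not pass. Pdgfra stood at 26.5 ± 19.3 CPM (SD, n = 3) in number 6 and at 153 ± 81.3 CPM (SD, n = 15) in the other numbers (log2 fold change -2.26, SE 0.30, adjusted p = 1.04e-05). Sox10 stood at 5.30 ± 3.54 CPM and 34.3 ± 17.2 CPM (-2.41, SE 0.28, adjusted p = 2.26e-06). In number 3, 14 members fell and none rose, where 9.44% of all tested genes fell and 10.5% rose. Pdgfra stood at 42.3 ± 24.7 CPM in number 3 and at 150.2 ± 85.8 CPM in the others (-1.53, SE 0.28, adjusted p = 0.000485). Mbp fell in both, by 0.66 in number 3 (adjusted p = 0.000763) and by 0.68 in number 6 (adjusted p = 0.000424) on the log2 scale. The medians of the 19 were -0.80 in number 3 and -1.16 in number 6. Gpr17 passed in both, but at 0 to 5 counts per library its fitted fold change depends on the prior count and is not given.

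Numbers 2 and 5 lay nearer the middle. In number 2, 4 members rose (Tspan2, Gal3st1, Sox10 and Nkx2-2) and none fell, where 13.5% of all tested genes rose and 17.5% fell. In number 5, 3 rose (Tspan2, Sox10 and Mog) and 2 fell (Cnp and Myrf), where 12.3% rose and 14.7% fell. The fall of Cnp (log2 fold change -0.33) did not pass without mSc replicate 1 (adjusted p = 0.0512). Tspan2 stood at 47.7 ± 2.61 CPM in number 2 and at 33.9 ± 5.71 CPM in the others (log2 fold change 0.51, SE 0.07, adjusted p = 6.45e-06). The medians of the 19 were 0.29 and 0.14.

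**Figure D4:**
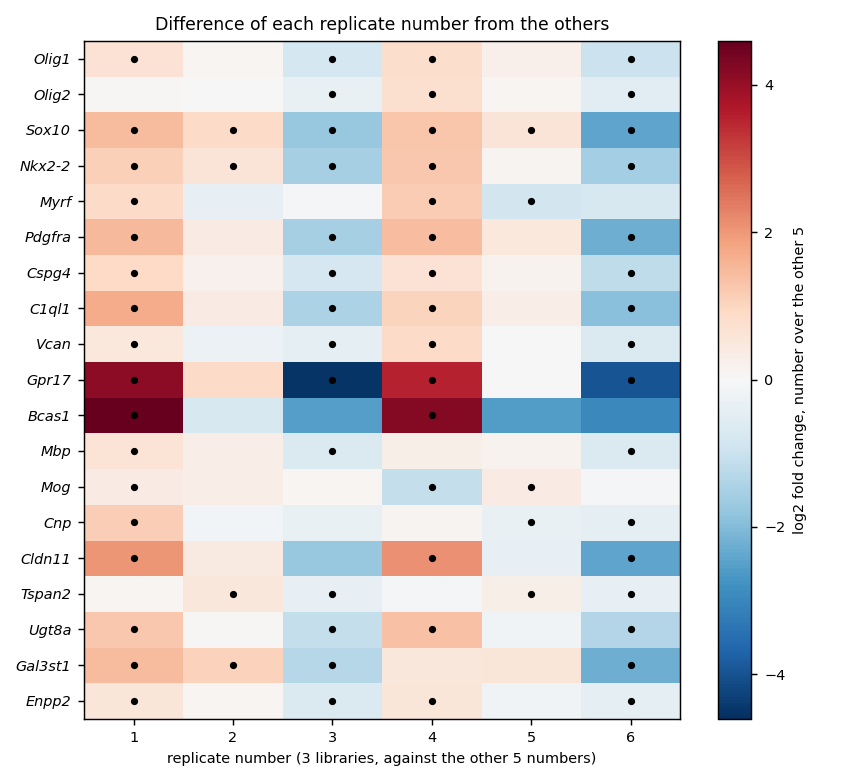
Log2 fold change of each replicate number over the other 5 (colour) for the 19 tested oligodendrocyte lineage genes (rows) and 6 numbers (columns), with a dot where the adjusted p is under 0.05. Numbers 1 and 4 are red with 17 and 14 members higher, numbers 3 and 6 are blue with 14 and 16 lower, and Mog is the 1 member with a dot for a lower level in number 4.

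Other transcripts moved with the numbers as well. The summed level of 12 interferon-induced genes, a list added after the data were seen, was 102 to 177 CPM in number 3 and 306 to 491 CPM in number 6, and between 11.9 and 37.4 CPM in the other 12 libraries. Of its 11 tested genes, 9 rose in number 3 and 11 in number 6. In numbers 1, 2, 4 and 5, 7, 7, 11 and 6 fell, while 2 rose in number 2. Summed astrocyte markers (17 genes) were 5545 to 6560 CPM in number 1 and 1862 to 2471 CPM in the other 15 libraries. All 17 rose in number 1, as most oligodendrocyte lineage genes did, and 9 fell in number 3 and 11 in number 6, with none rising in either. Of these 17, 1 rose and 10 fell in number 2, 3 rose and 8 fell in number 4 and 8 fell in number 5. Summed cell cycle genes (10 genes) were 135 to 188 CPM in number 4, 63.1 to 98.5 CPM in number 3 and 55.7 to 87.7 CPM in number 6, with 78.8 to 122 CPM in numbers 1, 2 and 5. All 10 rose in number 4 and 9 of 10 fell in number 6. Summed genes of vascular cells and fibroblasts (14 genes, Dcn and Pdgfrb the highest) were 43.6 to 56.2 CPM in number 1 and 15.7 to 33.0 CPM elsewhere, while a Schwann cell list (8 genes) was 30.6 to 34.2 CPM in number 3, 23.7 to 29.5 CPM in number 6 and 8.81 to 24.3 CPM elsewhere, with Egr2, which neurons also make, its highest gene. Microglial genes (14 genes, Cd68 the highest) summed to 33.4 to 38.9 CPM in numbers 3 and 6 and to 17.7 to 30.9 CPM in the other 12 libraries, and choroid plexus and ependymal genes (9 genes, Foxj1 the highest) to 7.86 to 13.4 CPM over the 18 libraries. Summed neuronal markers (12 genes) were 5890 to 6054 CPM in number 1, 5772 to 5949 CPM in number 4 and 4774 to 5493 CPM elsewhere. Of these 12, 5 rose and 3 fell in number 1, 8 rose and 0 fell in number 4, and 0 rose and 7 fell in number 5. In number 2, 2 rose and 4 fell, and in numbers 3 and 6, 3 rose and 3 fell in each. The part of any of these lists in the levels of the oligodendrocyte lineage genes was not tested.

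The question of the design, whether overexpressing a proteasome subunit changes the cultures' transcripts, was then put to the same genes. No tested member passed the test between groups: 0 of 19 were called in Psmb8 against mSc, Psmb5 against mSc or Psmb8 against Psmb5 (quasi-likelihood test of edgeR, adjusted by Benjamini and Hochberg's method, threshold 0.05), and none had an unadjusted p under 0.05. DESeq2 also called none. Very few genes passed at all: 0.00638% of those tested rose and 0% fell in Psmb8 against mSc, and likewise in Psmb5 against mSc, while 0.00638% rose and 0.00638% fell in Psmb8 against Psmb5. The same 6 mSc libraries served both comparisons with mSc. For no tested member did the levels of a pair of groups separate without overlap, which 0.121% of all tested genes did in Psmb8 against mSc, 0.0319% in Psmb5 against mSc and 0.0893% in Psmb8 against Psmb5.

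Libraries of the same number deviated together, so the number was also used as a block, which lowers the residual spread. With the block, again 0 of the 19 members passed in any comparison, while 0.115% of all tested genes rose and 0.211% fell in Psmb8 against mSc, 0.00638% rose and 0% fell in Psmb5 against mSc, and 0.0128% rose and 0.0255% fell in Psmb8 against Psmb5. Unadjusted p-values were under 0.05 for 2, 0 and 3 of the 19 members in these comparisons and for 10.7%, 6.87% and 7.64% of all tested genes. The members' share was thus close to the background in Psmb8 against mSc, below it in Psmb5 against mSc and above it in Psmb8 against Psmb5. With few members that vary together, this is a description. Pdgfra stood at 126 ± 86.9 CPM in Psmb8, 144 ± 108 CPM in Psmb5 and 127 ± 85.1 CPM in mSc libraries (SD, n = 6 each). Its log2 fold change with the block was -0.09 (SE 0.22, adjusted p = 0.931) in Psmb8 against mSc and 0.10 (SE 0.23, adjusted p = 0.957) in Psmb5 against mSc. Mbp stood at 50.0 ± 12 CPM in Psmb8, 52.7 ± 15.7 CPM in Psmb5 and 56.8 ± 24.3 CPM in mSc libraries, with log2 fold changes with the block of -0.13 (SE 0.11, adjusted p = 0.73) and -0.07 (SE 0.11, adjusted p = 0.928) against mSc.

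Bcas1, Enpp2 and Myrf were the members behind these counts, and their values are given as a description. Bcas1 averaged 0.40 ± 0.56 CPM in Psmb8, 3.08 ± 5.32 CPM in Psmb5 and 2.74 ± 5.45 CPM in mSc libraries (SD, n = 6 each). In numbers 1 and 4 it was lower in Psmb8 than in Psmb5 and mSc, and in the other numbers it had 0 to 2 counts in Psmb8, 2 to 7 in Psmb5 and 1 to 7 in mSc libraries, too few to give a direction. The blocked log2 fold change was -2.63 (SE 0.61, adjusted p = 0.0657) in Psmb8 against mSc and -2.95 (SE 0.60, adjusted p = 0.0878) in Psmb8 against Psmb5, neither of which passed. Without the block, the estimates depended on single libraries. There the log2 fold change of Bcas1 in Psmb8 against mSc was -2.73 with all libraries and -0.38 without mSc replicate 1. In Psmb8 against Psmb5 it was -2.93 with all libraries and -1.34 without Psmb5 replicate 4. Leaving out 1 library breaks its pairing by number. With the block and a number left out, Bcas1 ranged from -2.69 to -2.63 and from -3.04 to -2.92 in these comparisons. Numbers 1 and 4, which hold most of its counts, could not be left out, as Bcas1 then fell below the count filter. Enpp2 averaged 25.0 ± 5.16 CPM in Psmb8 and 30.8 ± 10.0 CPM in mSc libraries and was higher in Psmb8 in 1 of 6 pairs (blocked log2 fold change -0.28, SE 0.09, adjusted p = 0.199). In Psmb8 against Psmb5 the blocked log2 fold change of Enpp2 was -0.22 (adjusted p = 0.549). Myrf averaged 2.07 ± 0.79 CPM in Psmb8, 3.52 ± 2.72 CPM in Psmb5 and 2.87 ± 1.99 CPM in mSc libraries. Its blocked log2 fold change was -0.70 (SE 0.25, adjusted p = 0.488) in Psmb8 against Psmb5 and -0.43 (SE 0.26, adjusted p = 0.592) in Psmb8 against mSc. Single libraries moved the unblocked values of Myrf too. Without the block it stood at -0.76 in Psmb8 against Psmb5 with all libraries and at -0.23 without Psmb5 replicate 4. In Psmb8 against mSc it stood at -0.46 with all libraries and at -0.014 without mSc replicate 1. With the block and each number left out, Myrf ranged from -0.83 to -0.39 in Psmb8 against Psmb5. In Psmb8 against mSc that range was -0.50 to -0.17, and neither comparison passed in any of these runs.

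**Figure D5:**
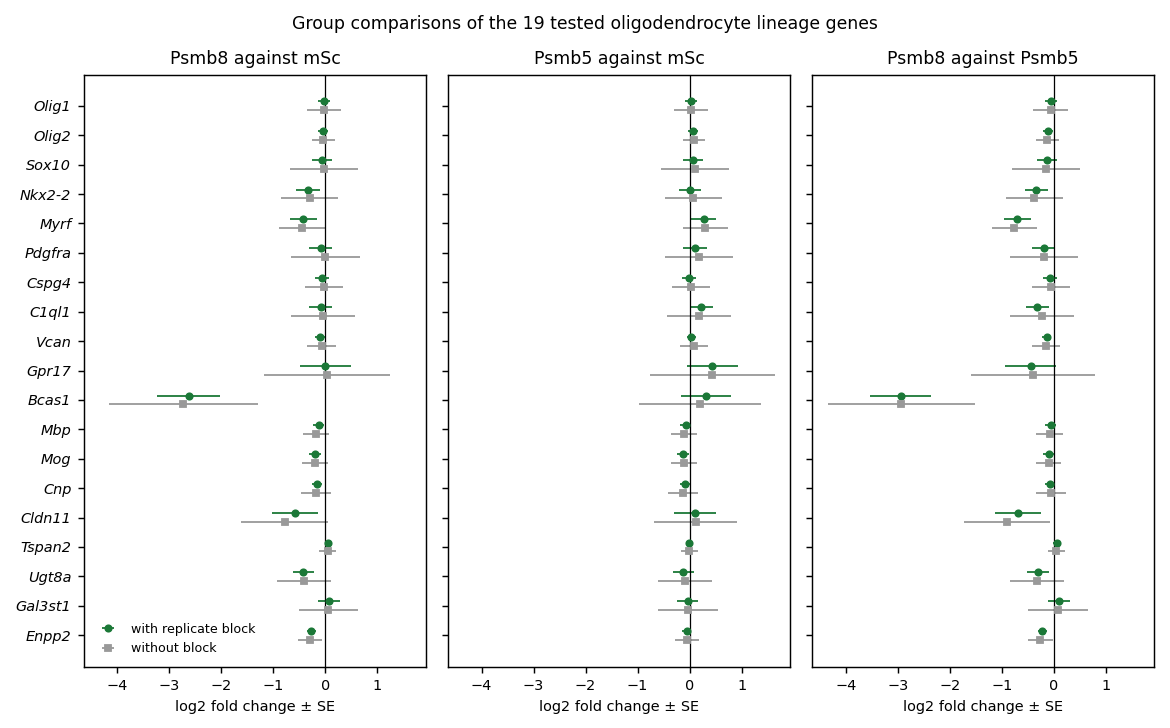
Log2 fold changes (horizontal axis, points) with standard errors (bars) of the 19 tested oligodendrocyte lineage genes in 3 group comparisons, with the replicate block (green) and without it (grey). Apart from Bcas1, at -2.63 in Psmb8 against mSc and -2.95 in Psmb8 against Psmb5 with the block, the blocked values lie between -0.70 and 0.44, and the bars are shorter with the block.

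As a group, the 19 tested members had a median log2 fold change of -0.07 in Psmb8 against mSc, 0.07 in Psmb5 against mSc and -0.15 in Psmb8 against Psmb5 without the block, beside 0.00 over all tested genes in each. The fold change was below 0 for 16, 7 and 17 of them, and for 49.7%, 49.5% and 49.7% of all tested genes. With the block it was below 0 for 17, 8 and 17. The members share libraries and vary together, so these counts are a description. By role, the medians in Psmb8 against mSc without the block were -0.04 for the 5 lineage factors and -0.04 for the 4 tested precursor genes. They were -0.19 for the 5 tested myelin genes and -0.30 for the 3 tested lipid and other enzymes. The 2 tested premyelinating genes differed, with Gpr17 at 0.035 and Bcas1 at -2.73 without the block and at -0.004 and -2.63 with it. None of these passed.

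The other genes of the lineage were taken from a pair of lists. A list of 46 further oligodendrocyte genes had 37 tested, and a list of 20 ligands, receptors and other signals that act on the lineage had 18 tested; 0 of either passed in any group comparison, with or without the block. The most abundant of the first list were Ptprz1, a receptor phosphatase of precursors and astrocytes, at a mean of 444 CPM, Tubb4a at 297, Nfasc at 271, Tppp at 218, Qk at 192 and Tnr at 188 CPM, several of which neurons also make. Of the signals, Lingo1, an inhibitor of differentiation that neurons also make, averaged 707 CPM, Fgfr1 173, Adgrg1 141, Cntfr 75.0, Pdgfa, the ligand of Pdgfra, 63.6 and Notch1 60.6 CPM. Pdgfa stayed within 58.9 to 68.6 CPM over the 18 libraries, beside the 11.7 to 314 CPM of its receptor. Among the numbers, 27 of the 37 tested lineage genes rose and 1 fell in number 1, 6 rose and 10 fell in number 2, 3 rose and 16 fell in number 3, 15 rose and 5 fell in number 4, 5 rose and 11 fell in number 5, and 2 rose and 19 fell in number 6. In number 2, where 4 members rose and none fell, more of these further genes thus fell than rose. Of the 18 tested signals, 11 rose and 1 fell in number 1, 2 rose and 8 fell in number 2, 2 rose and 4 fell in number 3, 2 rose and 4 fell in number 4, 1 rose and 6 fell in number 5, and 4 rose and 5 fell in number 6. Over all tested genes, the share that rose was 10.5% to 19.6% and the share that fell 9.44% to 17.5%, depending on the number.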

How the data were processed

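RNA was sequenced after poly(A) selection, per the labels' protocols. The authors deposited raw read counts per Ensembl gene for 18 libraries, in whole numbers without normalization. STAR 2.4, DESeq2, GRCm39 and mm10 are named in the submitters' processing notes, with no role given. The sources used here do not give the counter, its strand setting or its handling of reads with several matches. Reads from antisense or overlapping genes, such as Nkx2-2os, Bcas1os1, Lims2 (over Gpr17) and Dnajc7 (over Cnp), therefore cannot be told apart from those of the member.

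Of 43629 IDs, 42462 were given a symbol. Exon lengths came from the GENCODE M21 annotation of GRCm38, which may differ from the counting build. Counts were tested in edgeR 4.0.16 (R 4.3.3) with filterByExpr by group (15671 genes kept), TMM scaling and the quasi-likelihood test on all 18 libraries, with Benjamini-Hochberg adjustment over all genes and a threshold of 0.05. CPM values use the TMM-scaled library sizes. Standard errors were derived from the F statistic. The fit without the replicate number is the main one for the groups. The number pairs the samples: the 18 same-numbered pairs between groups correlated at r = 0.45 to 0.73 in their deviations from the group means, against a mean of -0.12 over 90 other pairs. The block lowered the biological coefficient of variation to 5.94%, against 17.9% without it. Repeat deposits were not found among the 45 within-group pairs (chi-square per degree of freedom 2.91 to 37.8). The scripts were tested on simulated data.

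Members and lists were chosen with earlier results of these data known. All 29 members with counts are covered, and Lhfpl3 only by its promoter. Of other lists, genes called in a group comparison or else those with the highest mean CPM are named, with defining genes near 0. Some listed genes enter the counts without their own values being reported here. Alternatives were DESeq2 1.42.0, its size factors, no count filter, only the groups compared, the block, and samples, numbers or groups left out. At the library totals given, counting error limits genes near 1 CPM.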

Additional observations from a re-analysis of the deposited data

Results flagged for a closer look

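Libraries were looked at again by their gap in log2 CPM to the nearest other library of their group. This gap, divided by the group's range in log2 CPM, had to exceed Dixon's 95% critical value for 6 samples. Of 86 sets of a gene in a group, 16 met this, in 11 genes. The critical value assumes normal values, and several sets had counts near 0. The share expected by chance is therefore not known, and 16 of 86 is a description. For Opalin in mSc and in Psmb5, all libraries but 1 had 0 counts, which fixes the ratio at 1. The genes share libraries, so these are not 16 separate events. mSc replicate 1 was the high library in 9 of them, with Cnp at 50.5 CPM, Mag at 6.66, Mobp at 6.46, Mal at 4.39, Enpp6 at 2.78, Fa2h at 2.78, Gjc3 at 1.42, Aspa at 0.58 and Opalin at 0.45 CPM. Psmb8 replicate 1 was high in Cnp (41.2 CPM), Mag (1.27 CPM) and Neu4 (0.24 CPM, from 4 counts). Psmb5 replicate 1 was high in Mal (1.30 CPM) and Opalin (0.27 CPM, from 5 counts).

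Mog was low in replicate 4 of Psmb5 (2.83 CPM) and mSc (3.43 CPM). In replicate 4 of Psmb8 it was also the lowest of its group, at 3.46 CPM, without meeting the criterion.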

How the results depend on the processing

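In the group comparisons 0 of the 19 tested members passed under any alternative run, DESeq2, no count filter, the replicate block and each library or number left out among them. The count of all genes that passed in Psmb8 against mSc was 1 without the block, 2 with DESeq2's Wald test, 1 to 2 without each library, 51 with the replicate block and 9 to 59 with the block and each number left out. In Psmb8 against Psmb5 it was 2, 6 with the block and 4 to 20 with the block and a number left out, and in Psmb5 against mSc 1 and 1 to 3. The block changed no call of a member.

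Single-member fold changes near 0 changed sign when a library was left out. Over each library left out, the log2 fold change in Psmb8 against mSc ranged from -0.30 to 0.30 for Pdgfra and from -0.31 to 0.044 for Mbp. In Psmb8 against Psmb5 it ranged from -0.49 to 0.20 for Pdgfra and, with numbers left out too, from -0.19 to 0.077 for Mbp. In Psmb5 against mSc it ranged from -0.20 to 0.49 for Pdgfra, -0.24 to 0.12 for Mbp, -1.40 to 2.55 for Bcas1, -0.19 to 0.069 for Enpp2 and -0.23 to 0.74 for Myrf. Bcas1 in Psmb8 stayed below 0 throughout. With the block and without replicate 1 or 4, Bcas1 fell below the count filter and has no value.

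Between numbers, 17 to 19 members passed without each number. Without the count filter, which leaves the scarce members in the test, 27 members passed in number 1 (17 with it). In the same setting 12 passed in number 2 (4) and 12 in number 5 (5), in either direction. The 10 genes below the filter summed to 11 to 23 counts in each library of numbers 2 and 5. A call of such a gene there rests on counts near 0. With a group left out, fewer genes passed in some numbers, and the reason was not tested. Without the mSc group 1682 passed in number 3 (3118 with it) and 2609 in number 5 (4238). Without the Psmb5 group 3153 passed in number 2 (4858), 1587 in number 3, 2839 in number 4 (5212), 2013 in number 5, with 3 members there, and 2356 in number 6 (4166). Number 4 had 3413 without the Psmb8 group, 5119 without mSc replicate 1 and 3449 without Psmb5 replicate 4, a setting added after the data were seen, as was leaving out mSc replicate 1 (3737 in number 1, against 5265). Over the members called in a number, 461 values under alternatives kept direction and call, 30 kept the direction without passing and 0 changed sign.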
